A study of Mus musculus with 9 samples.

Results

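The genes described here are Igf1r and 8 genes of the PI3K, Akt and Foxo signalling chain that can act downstream of it: Pik3r1, Pik3cd, Inpp5d, Akt1, Akt2, Foxo1, Foxo3 and Ddit4. A probe set was taken for one of these 9 genes when the platform annotation gave it exactly 1 gene symbol, current or older. This gave 32 probe sets, of which 27 passed a filter on dim signal, and all 9 genes passed through at least 1 of them. The array covered 18161 genes with a probe set of their own, and 13288 were tested. The level of a gene is the log2 signal of its probe set with the highest mean over the 9 arrays, and the other probe sets that passed the filter are given beside it.

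RNA of sorted mouse cells was measured on 9 Affymetrix arrays, in a study of T-ALL, a T cell leukemia, and of non-malignant outcomes of raised NOTCH1. The groups were Control, Abnormal non-malignant and NIC Tumor, with 3 samples each and 1 array per sample. The sorted population, the strain and age of the mice, the NOTCH1 construct and the meaning of NIC are not given in the sources used here. Nothing says that the samples came from separate animals, so p-values measure the spread between these samples, which may be technical.

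Igf1r encodes the receptor for insulin-like growth factors, which recruits class I PI3-kinase when it binds its ligand. The kinase makes the membrane lipid PIP3, on which Akt kinases are activated, and Inpp5d removes it again. Active Akt phosphorylates Foxo transcription factors and so keeps them out of the nucleus. In developing T cells, Foxo factors drive genes of recombination, quiescence, survival and trafficking. Much of this control acts on protein and lipid phosphorylation, which an expression array does not measure.

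Several arrays stood apart before any of these genes was considered. Of all pairs, non-malignant arrays 2 and 3 were closest (SD of their log2 differences over genes 0.16, next pair 0.3). By the same measure tumor 1 was 0.46 to 0.47 from the non-malignant arrays, and farther from tumor 2 (0.63) and tumor 3 (0.79). The other 2 tumors were not a close pair either, at 0.62 from each other. Of the tumors, the third was farthest from the control and non-malignant arrays, at 0.89 to 1.05. Control array 2 was the single one with signal of the Y-linked gene Eif2s3y, at a log2 level of 8.69 against 3.11 to 4.18 on the others. The controls thus did not all come from 1 animal. Markers of CD4+CD8+ thymocytes were all above the 40th percentile of at least 1 array in each group. Their summed level (log2 of the sum of the linear values of 9 genes) was 15.07 to 15.58 in controls, 15 to 15.11 in non-malignant samples and 13.08 to 14.42 in tumors. The summed level of 12 myeloid markers was 9.39 to 9.6, 10.33 to 10.5 and 9.78 to 11.05 in the same order. That of 6 erythroid markers was 9.14 to 9.24, 9.33 to 9.83 and 9.05 to 11.39. That of 7 B cell markers was 8.9 to 9.41, 9.48 to 9.68 and 8.62 to 9.36, and that of 8 stromal markers was 9.62 to 9.89, 9.68 to 9.86 and 9.78 to 10.35. Of the listed markers, Ebf1 (B cells), Itgam (myeloid) and Col1a1 and Pdgfra (stroma) stayed below the 40th percentile on all control and non-malignant arrays. Hba-a1 (erythroid) and Col3a1 (stroma) did so on all 9. Others of these lists were bright on some arrays. The myeloid marker S100a8 was at 8 to 8.03 on the non-malignant arrays and 8.35 on tumor 2. It was at 4.76 to 6.07 on the controls and at 4.96 and 5.64 on tumors 1 and 3. The erythroid markers Alas2, Slc4a1 and Car2 were highest on tumor 2, at 8.56, 9.18 and 10.15. By limma Cd4, Cd8b1, Rag1, Rag2 and Themis of the thymocyte list were lower in tumors than in controls. Rag1, Rag2 and Ptcra (−3.84, adjusted p = 0.0336) were lower in tumors than in non-malignant samples. No thymocyte marker passed in non-malignant samples against controls, with Ptcra at 3.27 (adjusted p = 0.0557) and Themis at −0.88 (adjusted p = 0.0555). Ctss was higher than in controls in both other groups. The B cell marker Cd22 was higher in non-malignant samples than in controls (1.99) and lower in tumors than in non-malignant samples (−1.56). Cd79b, of the same list, was lower in tumors than in controls (−1.38) and differed by −1.49 in non-malignant samples (adjusted p = 0.0966). The part of these differences in the results that follow was not tested.

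Igf1r was lower and Foxo1 higher in the abnormal non-malignant samples, whereas the PI3-kinase subunits, Inpp5d, both Akt kinases, Foxo3 and Ddit4 did not pass the test there. In tumors Igf1r, Pik3r1 and Foxo3 were lower than in controls. Between tumors and non-malignant samples none of the 9 genes passed. A gene was called at an adjusted p under 0.05 by limma with Benjamini-Hochberg adjustment over all 13288 genes. Since these are bulk samples, fewer cells of a type and less RNA per cell cannot be told apart.

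**Figure D1:**
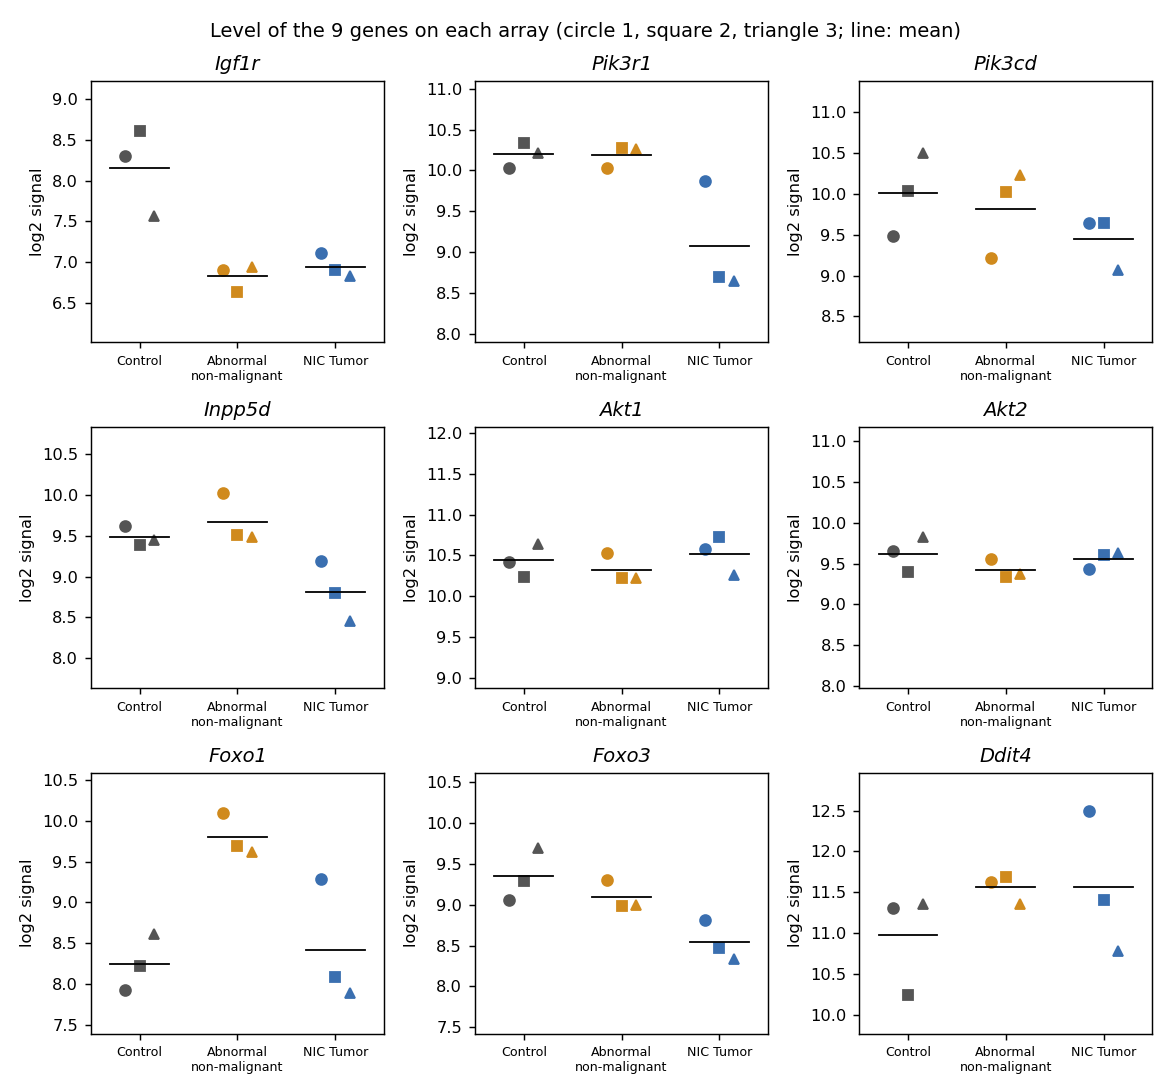
Log2 signal (vertical axis, each panel spanning the same width of the log2 scale) of the 9 genes on each array by group (horizontal axis). Circles, squares and triangles are replicates 1, 2 and 3 and the lines are group means. Igf1r lies between 7.57 and 8.61 on the controls and between 6.63 and 7.11 on the other 6 arrays. Foxo1 is at 9.62 or above on the 3 non-malignant arrays.

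Igf1r, the receptor at the head of the chain, was measured at 8.3, 8.61 and 7.57 on controls 1, 2 and 3. It was at 6.91, 6.63 and 6.94 on the non-malignant arrays and at 7.11, 6.9 and 6.83 on the tumor arrays. All 6 of the latter lay below all 3 controls, and the non-malignant and tumor arrays overlapped. The means were 8.16 ± 0.53, 6.83 ± 0.17 and 6.94 ± 0.15 (log2 signal, SD, n = 3 each). Igf1r fell by 1.33 ± 0.25 on the log2 scale (SE; a 2.52-fold difference of the mean log2 levels, adjusted p = 0.0175) in non-malignant samples. It fell by 1.22 ± 0.25 (2.32-fold, adjusted p = 0.0127) in tumors. Both comparisons use the same 3 controls. The difference between tumors and non-malignant samples was 0.12 ± 0.25 (adjusted p = 0.783). In order of level, tumors and non-malignant samples were neighbours that did not differ beyond their spread, and controls stood above both.

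The array carried 4 further probe sets for Igf1r, all dimmer than the one used. Their means over the 9 arrays were 4.46 to 5.43, beside a 40th percentile of 5.14 to 5.3, on which the filter rests. The probe set 1426565_at read 5.58, 6.41 and 5.42 on the controls, 4.93, 4.83 and 4.78 on the non-malignant arrays and 5.08, 5.12 and 5.48 on the tumors. It was lower on all non-malignant arrays than on any control, with a log2 fold change of −0.96 (adjusted p = 0.101, adjusted over all probe sets tested), and its tumors overlapped the controls (−0.58, adjusted p = 0.151). The probe set 1446303_at differed by −0.46 (adjusted p = 0.26) and −0.47 (adjusted p = 0.0932). The probe set 1452108_at, which stayed between 5.12 and 5.33 on all arrays, differed by −0.03 and −0.09. The last, 1428967_at, did not pass the filter.

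The regulatory subunit p85alpha of class I PI3-kinase is encoded by Pik3r1, and it stabilises the catalytic subunit and docks it to activated receptors. Its level was 10.03, 10.34 and 10.21 on the controls and 10.03, 10.28 and 10.26 on the non-malignant arrays. Tumor array 1, at 9.87, lay just under these 6, and tumor arrays 2 and 3 were lower at 8.69 and 8.65. The tumor group thus had an SD of 0.69, against 0.15 in controls and 0.13 in non-malignant samples. Pik3r1 fell by 1.13 ± 0.3 in tumors against controls (2.19-fold, adjusted p = 0.0324). Against the non-malignant samples the difference was −1.12 ± 0.3 (adjusted p = 0.065). Between non-malignant samples and controls it was −0.01 ± 0.3 (adjusted p = 0.999).

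The other 3 probe sets of Pik3r1 shared the low tumor arrays in part. The probe set 1425514_at read 9.74 on tumor 1, 7.9 on tumor 2 and 7.24 on tumor 3, against 9.13 to 9.6 on the controls. The probe set 1451737_at read 8.72, 7.63 and 7.51, against 8.38 to 8.61. The probe set 1425515_at was low on tumor 2 (6.65) and on non-malignant 1 (6.62), with 7.53 on tumor 3 and 7.62 to 7.91 on the controls. None of the 3 passed in tumors against controls by limma (log2 fold changes −1.13, −0.57 and −0.51, adjusted p = 0.186, 0.301 and 0.432).

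The leukocyte catalytic subunit p110delta is encoded by Pik3cd. Its level was 9.49, 10.04 and 10.5 on the controls, 9.22, 10.02 and 10.23 on the non-malignant arrays and 9.65, 9.64 and 9.07 on the tumors. The 3 groups overlapped, and no comparison passed. The log2 fold changes were −0.19 ± 0.33 in non-malignant samples and −0.56 ± 0.33 in tumors against controls (adjusted p = 0.947 and 0.267). The probe set 1453281_at differed by −0.06 and −0.48 in the same comparisons (adjusted p = 0.987 and 0.343). The probe sets 1422992_s_at and 1422991_at instead had their lowest readings on control 2 (6.08 and 6.21) and non-malignant 1 (6.23 and 6.7).

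The phosphatase SHIP-1, which takes a phosphate off PIP3 in blood cells, is encoded by Inpp5d. Its level was 9.62, 9.39 and 9.45 on the controls, 10.02, 9.51 and 9.48 on the non-malignant arrays and 9.19, 8.8 and 8.45 on the tumors. Every tumor lay below every other array, yet neither comparison of the tumors passed. The log2 fold change was −0.67 ± 0.23 against controls (adjusted p = 0.0741) and −0.86 ± 0.23 against non-malignant samples (adjusted p = 0.0635). Its second probe set, 1424195_a_at, differed by 0.09 and −0.06 in these comparisons and ranged from 7.66 to 8.23.

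Akt1 and Akt2 encode the kinases that carry the PI3K signal to Foxo factors and to metabolism. Akt1 stood at 10.42, 10.24 and 10.64 on the controls, 10.53, 10.22 and 10.22 on the non-malignant arrays and 10.58, 10.73 and 10.26 on the tumors. Akt2 stood at 9.65, 9.39 and 9.82, then 9.55, 9.33 and 9.37, then 9.43, 9.6 and 9.63. The groups overlapped for both genes, and the means differed by no more than 0.2 on the log2 scale in any comparison, with an SE of 0.18 for Akt1 and 0.17 for Akt2. A second Akt1 probe set, 1425711_a_at, read 9.78, 10.27 and 9.87 on the tumors against 9.55, 8.32 and 9.11 on the controls and 8.65, 9.14 and 9 on the non-malignant arrays. All tumors lay above all other arrays there, without passing (log2 fold change 0.98 against controls, adjusted p = 0.07, and 1.04 against non-malignant samples, adjusted p = 0.113). The Akt1 probe set 1440950_at differed by −0.2 in non-malignant samples and −0.16 in tumors against controls. The Akt2 probe set 1421324_a_at differed by 0.23 and 0.51 and 1455703_at by −0.16 and −0.24, and none of these passed.

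Foxo1, the Foxo factor with known roles in T cell survival and homing, was highest in the non-malignant samples. Its level was 7.93, 8.22 and 8.61 on the controls, 10.09, 9.69 and 9.62 on the non-malignant arrays and 9.29, 8.08 and 7.89 on the tumors. The non-malignant arrays lay above all others, tumor 1 came next, and tumors 2 and 3 fell within or just under the controls. Foxo1 rose by 1.55 ± 0.35 in non-malignant samples (2.93-fold, adjusted p = 0.0433). Tumors differed from controls by 0.17 ± 0.35 (adjusted p = 0.771) and from non-malignant samples by −1.38 ± 0.35 (adjusted p = 0.0588). In order of level, tumors and controls were the neighbours that did not differ beyond their spread.

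The probe set used for Foxo1 has a suffix that marks probes shared between transcripts, and 2 others of similar signal behaved alike. The probe set 1416981_at read 7.84 to 8.4 on the controls, 9.35 to 10.02 on the non-malignant arrays and 9.29, 7.8 and 8.19 on the tumors. The probe set 1416982_at read 7.93 to 8.48, then 9.38 to 9.53, then 9.01, 7.54 and 8.31. With p adjusted over all probe sets, the 3 had log2 fold changes of 1.55, 1.5 and 1.23 in non-malignant samples (adjusted p = 0.0727, 0.0935 and 0.128), so that the call of the first did not hold on that scale. The fourth probe set did not pass the filter.

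Foxo3, which is phosphorylated by Akt in the same way, stood at 9.06, 9.29 and 9.7 on the controls. It was at 9.3, 8.98 and 9 on the non-malignant arrays and at 8.82, 8.47 and 8.34 on the tumors. Every tumor lay below every other array, and the first 2 groups overlapped. Foxo3 fell by 0.81 ± 0.21 in tumors against controls (1.75-fold, adjusted p = 0.0334). The difference was −0.26 ± 0.21 between non-malignant samples and controls (adjusted p = 0.776) and −0.55 ± 0.21 between tumors and non-malignant samples (adjusted p = 0.149). The probe sets 1434832_at and 1450236_at differed by −1.01 and −0.23 in tumors against controls (adjusted p = 0.155 and 0.306).

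Ddit4 encodes REDD1, a stress-induced inhibitor of mTORC1, and had 1 probe set. Its level was 11.31, 10.24 and 11.35 on the controls, 11.63, 11.69 and 11.35 on the non-malignant arrays and 12.49, 11.4 and 10.78 on the tumors. It spread most within groups of the 9 genes in tumors (SD 0.86) and controls (SD 0.64), with control 2 the lowest and tumor 1 the highest array. Both comparisons with controls gave a log2 fold change of 0.59 ± 0.42 (adjusted p = 0.696 for non-malignant samples and 0.358 for tumors).

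**Figure D2:**
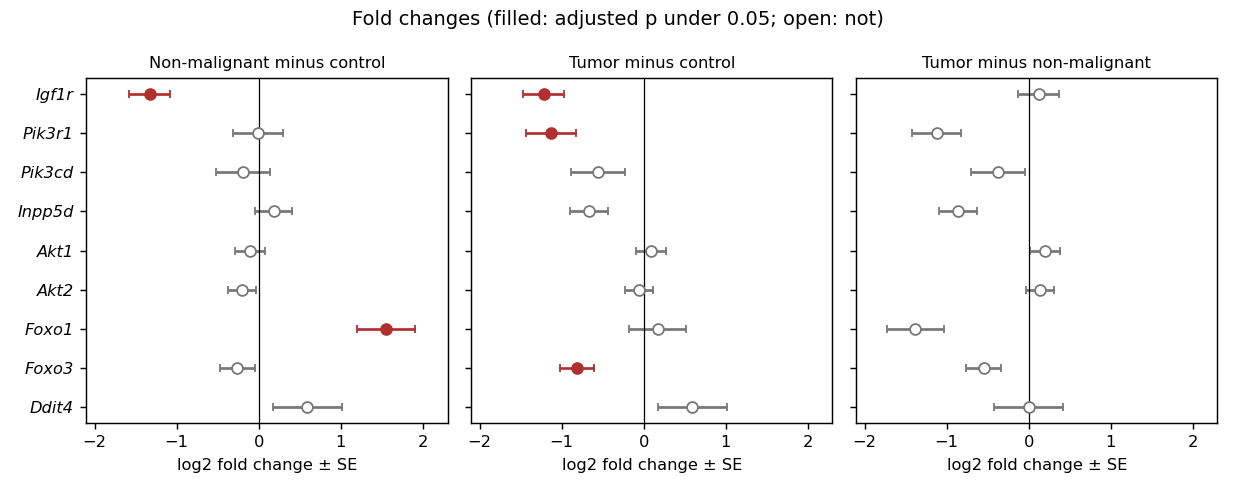
Log2 fold change (horizontal axis) of each gene (vertical axis) in the 3 comparisons, with bars of 1 SE from the limma fit. Filled red points passed at an adjusted p under 0.05: Igf1r and Foxo1 in non-malignant samples, and Igf1r, Pik3r1 and Foxo3 in tumors. The left and middle panels share their controls.

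Counted over the 9 genes, 1 was called higher and 1 lower in non-malignant samples against controls, where 2.87% and 0.655% of all genes tested were. In tumors against controls 0 were called higher and 3 lower, beside 8.49% and 7.19% of all genes. The count of 0 was also 0 at an unadjusted p under 0.05, and 4 genes were lower at that level. In this comparison 4277 of all 13288 genes were under it, in either direction. In tumors against non-malignant samples limma called 0 in either direction, beside 1.53% of all genes higher and 2.7% lower. At an unadjusted p under 0.05, 4 were lower there and 0 higher, beside 3442 of all 13288 genes in either direction. The median log2 fold change of the 9 genes was −0.11, −0.56 and −0.37 in the 3 comparisons, beside 0.01, 0.06 and 0.03 over all genes tested.

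The calls depended on single arrays. Igf1r in tumors against controls passed with any 1 array left out, at −1.51 to −0.99. Igf1r in non-malignant samples passed in 4 of these 9 fits, and was lost when control 1, control 2 or a single non-malignant array was dropped (−1.62 to −1.11 over the 9 fits). Foxo1 in non-malignant samples passed in 2, without tumor 1 or tumor 3 (1.39 to 1.73). Pik3r1 in tumors passed in 2, without non-malignant 1 or tumor 1 (−1.53 to −0.92), and Foxo3 in 3, without control 1, non-malignant 1 or tumor 1 (−0.95 to −0.63). None of these 5 differences changed direction. As the mean of all probe sets of the gene, Igf1r passed at −0.7 in non-malignant samples and −0.62 in tumors, Foxo1 passed at 1.09 in non-malignant samples and Foxo3 at −0.68 in tumors. Pik3r1 in tumors did not pass on that scale (−0.84, adjusted p = 0.103). Without tumor 1, the array that lay near the non-malignant samples, 4 of the 9 genes were called lower in tumors against non-malignant samples: Foxo1 at −1.82, Pik3r1 at −1.52, Inpp5d at −1.05 and Foxo3 at −0.69. The same fit called 13.8% of all 13247 genes tested lower there, against 2.7% with all arrays. Inpp5d then also passed against controls, at −0.86, where 14.5% of all genes were called lower.

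**Figure D3:**
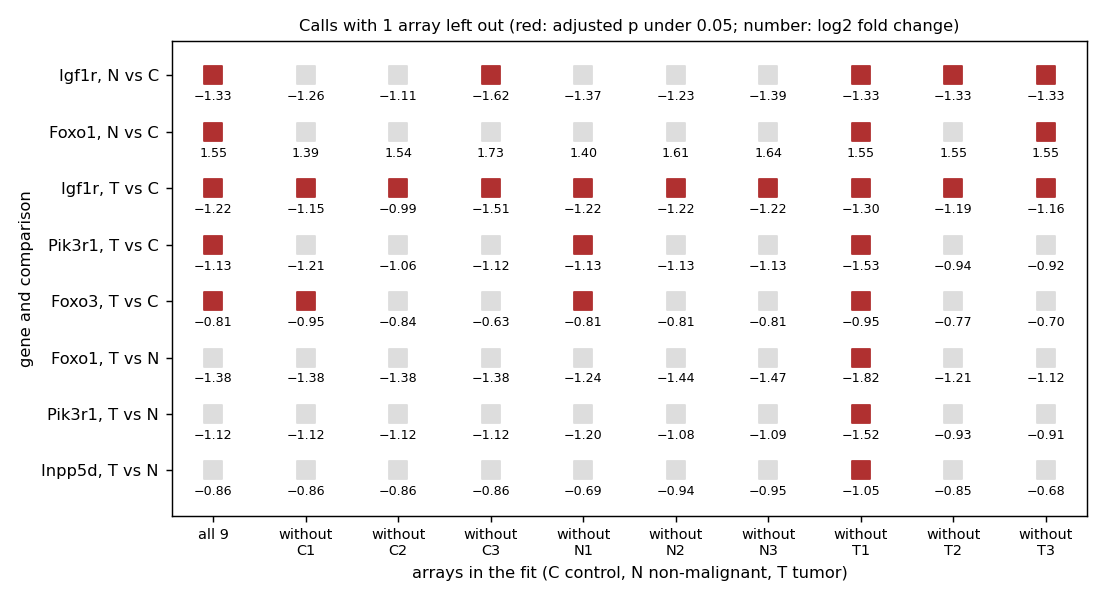
The 5 calls of the main fit and 3 comparisons that passed without tumor 1 (vertical axis), refitted with each array left out (horizontal axis; C control, N non-malignant, T tumor). Red squares passed at an adjusted p under 0.05, grey ones did not, and the number is the log2 fold change. Igf1r in tumors is the row that is red throughout. The lowest 3 rows are red without tumor 1 alone.

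With several probe sets per gene, the plot of probe sets shows where they part. For Foxo1 the 3 brighter probe sets ran together over the arrays, whereas for Akt1 and Pik3r1 single probe sets left the others on some arrays. The signal of the 3′ probe set of Gapdh over its 5′ probe set, a measure of RNA integrity, was highest on non-malignant 1 (0.75 on the log2 scale), control 2 (0.44) and control 3 (0.43) and between −0.16 and −0.01 on the other 6. For beta-actin it was 0.46 on control 2, 0.38 on non-malignant 1, 0.36 on control 3 and 0.1 to 0.25 elsewhere. The Pik3cd probe sets 1422992_s_at and 1422991_at, the Akt1 probe set 1425711_a_at and the Akt2 probe set 1421324_a_at were lowest on control 2, and 1425515_at of Pik3r1 on non-malignant 1. The other probe sets of Pik3cd, Akt1 and Akt2 past the filter were not lowest on control 2. The part of RNA integrity in this was not tested.

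**Figure D4:**
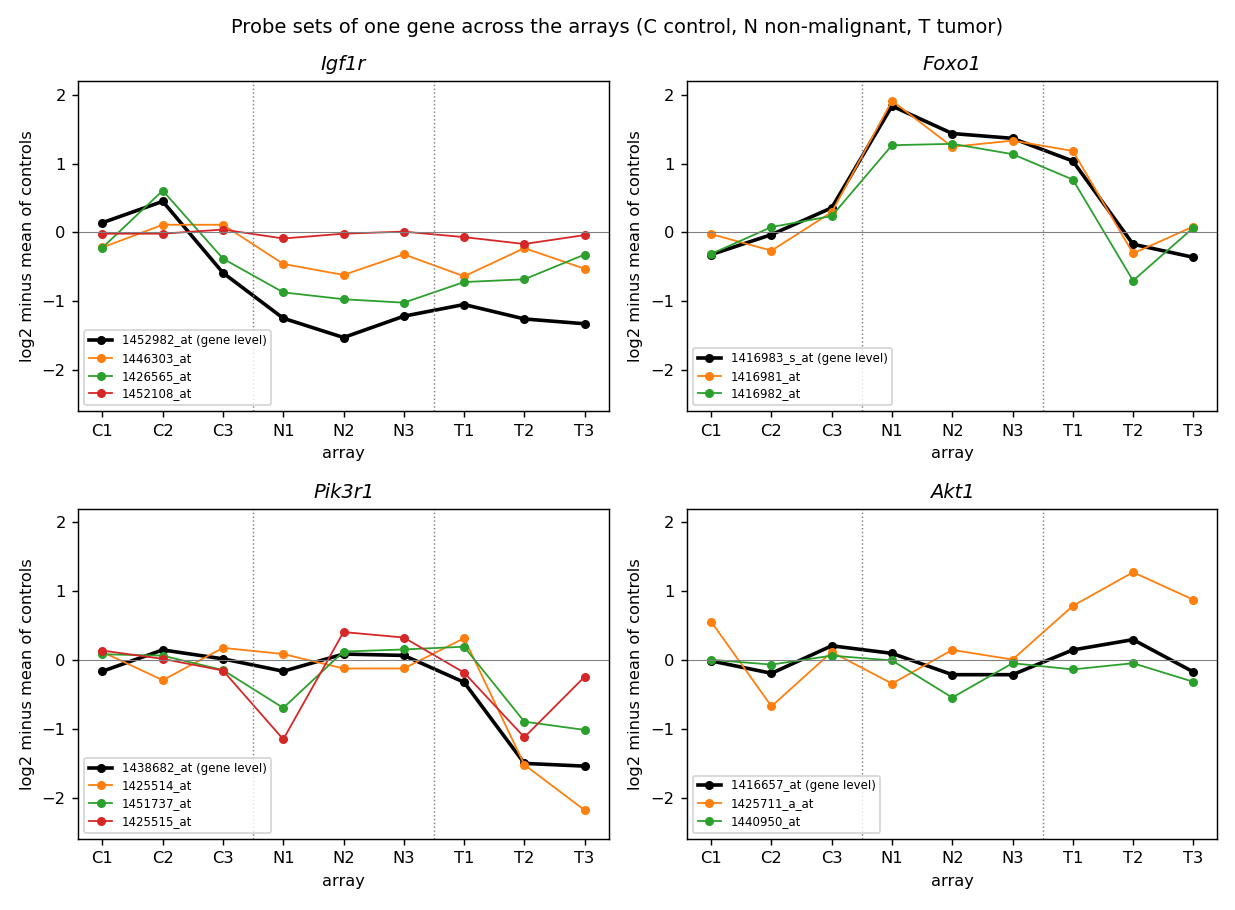
Log2 signal of each probe set past the filter minus its own mean over the controls (vertical axis) on the 9 arrays (horizontal axis; C control, N non-malignant, T tumor) for Igf1r, Foxo1, Pik3r1 and Akt1. The thick black line is the probe set used for the gene; lines join the readings of 1 probe set and imply no order of the arrays. The Igf1r probe set 1452108_at stays flat at a level near the limit of the filter, and the Akt1 probe set 1425711_a_at is above its control mean on all 3 tumors.

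Around these 9 genes, 68 further genes of the pathway were listed in 4 lists, of which 64 had a probe set of their own and 61 were tested. Of all 13288 genes, 1765 had an unadjusted p under 0.05 in non-malignant samples against controls, in either direction. The same count was 4277 in tumors against controls and 3442 in tumors against non-malignant samples. Of all genes, limma called 2.87% higher and 0.655% lower in non-malignant samples against controls. In tumors these shares were 8.49% and 7.19% against controls and 1.53% and 2.7% against non-malignant samples. Among 11 genes of IGF and insulin receptor signalling, limma called 0 in non-malignant samples (0 at an unadjusted p under 0.05). In tumors 1 fell, Sos1, a Ras exchange factor recruited by receptors through Grb2, by 0.92 against controls (adjusted p = 0.0102) and by 1.05 against non-malignant samples (adjusted p = 0.0183). Its level was 6.99 to 7.33 on the controls, 7.16 to 7.51 on the non-malignant arrays and 6.47, 5.98 and 6.29 on the tumors. The call against controls held with any 1 array left out, and the other ended without non-malignant 2 or 3. As the mean of its probe sets Sos1 did not pass the filter and was not tested. The insulin receptor Insr, closest relative of Igf1r, differed by −0.66 in non-malignant samples (adjusted p = 0.399) and −0.95 in tumors (adjusted p = 0.061). The median of the list was 0.03 and −0.18 against controls in non-malignant samples and tumors, and −0.18 between these.

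Among 14 PI3K subunits and phosphatases, limma called 0 in non-malignant samples (2 higher and 1 lower at an unadjusted p under 0.05). In tumors against controls Inppl1, which encodes SHIP-2, rose by 1.13 (adjusted p = 0.0226), and Pik3c2a, a class II PI3-kinase, fell by 0.87 (adjusted p = 0.0115). Pik3c2a was at 7.64 to 7.91 on the controls and 7.06, 6.94 and 6.63 on the tumors, and kept its call in all 9 fits with 1 array left out. The mean of the probe sets of Pik3c2a did not pass the filter and was not tested. The call of Inppl1 ended without control 1, tumor 2 or tumor 3. The regulatory subunit Pik3r5 was split among tumors like Pik3r1, at 9.44 on tumor 1 and 7.67 and 7.22 on tumors 2 and 3, against 9.13 to 9.28 on controls (log2 fold change −1.09, adjusted p = 0.138). The list's median was 0.04 and −0.48 in the 2 comparisons with controls. Between tumors and non-malignant samples 0 were called by limma (3 lower at an unadjusted p under 0.05), with a median of −0.21.

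Among 18 genes around Akt and mTOR, limma called 0 in non-malignant samples (3 higher at an unadjusted p under 0.05). In tumors against controls both called subunits belonged to mTORC2, the complex that phosphorylates Akt, and they moved in opposite directions. Rictor fell by 1.93 (adjusted p = 0.0246), with 8.64, 9.3 and 8.68 on the controls and 8, 7.12 and 5.71 on the tumors. Mapkap1 rose by 1.17 (adjusted p = 0.02), from 8.01 to 8.76 on the controls to 9.29 to 10.12 on the tumors. On the non-malignant arrays Mapkap1 was at 9.36, 9.71 and 9.52 (1.11 against controls, adjusted p = 0.0599). Sesn1, a stress-induced inhibitor of mTORC1, fell by 1.88 (adjusted p = 0.0202), with 9.66 on tumor 1 and 8.2 and 7.66 on the others. The call of Rictor ended without any 1 control or without tumor 2, that of Mapkap1 without control 2 or 3, and that of Sesn1 without control 1, control 2 or tumor 2. As the mean of its probe sets Rictor differed by −1.01 (adjusted p = 0.0924). The list's median was −0.04 and 0.11 in the comparisons with controls. Tumors set against non-malignant samples gave −0.18, with 0 called by limma (5 lower at an unadjusted p under 0.05).

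Foxo4 and 17 Foxo target genes showed the most calls of the 4 lists. The lists were chosen with earlier results of these data known, so this ranking is only descriptive. In non-malignant samples against controls 2 rose and 0 fell (4 higher and 1 lower at an unadjusted p under 0.05). Of all genes, 2.87% were called higher and 0.655% lower there. Klf2, a regulator of T cell quiescence and egress, rose by 2.76 (adjusted p = 0.00333), from 8.19, 7.13 and 8.35 to 9.99, 10.97 and 10.99. S1pr1, the receptor that guides T cells out of the thymus, rose by 2.09 (adjusted p = 0.00802), from 5.55, 6.12 and 6.4 to 7.51, 8.36 and 8.49. The call of S1pr1 ended without non-malignant 2 or 3. The list's median log2 fold change was −0.03, near the 0.01 of all genes.

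In tumors against controls 3 of these 18 rose and 7 fell, beside 8.49% and 7.19% of all genes. Klf2 (2.71, adjusted p = 0.00259) and S1pr1 (2.84, adjusted p = 0.00127) rose again against the same controls, and so did Sod2, the mitochondrial superoxide dismutase (1.15, adjusted p = 0.00261). Those that fell by the smallest adjusted p were Rag2 (−3.27, adjusted p = 0.000742), Bcl6 (−2.88, adjusted p = 0.00111), Rag1 (−4.4, adjusted p = 0.0116) and Foxo4 (−1.18, adjusted p = 0.022). Rag1 and Rag2 encode the V(D)J recombinase and Bcl6 a transcriptional repressor. Rag1 and Rag2 are also on the list of CD4+CD8+ thymocyte markers, of which 5 of 9 fell in this comparison. As the mean of its probe sets Foxo4 differed by −0.51 (adjusted p = 0.119), and its call ended without control 2, control 3, tumor 2 or tumor 3. The other 3 that fell were Txnip, Cited2 and Ccng2. The call of Cited2 held in 5 of 9 fits with 1 array left out (−2.04 to −1.15), ending without any 1 control or tumor 2. That of Ccng2 held in 1, without tumor 1 (−3.04 to −1.61), and ended under 6 of the 14 other settings. The median of the 18 was −1.01, beside 0.06 over all genes. The count of 7 ran from 3 without control 2 or tumor 2 to 11 without tumor 1, and was 4 without control 1, control 3 or tumor 3. Without tumor 1, 14.5% of all genes were called lower, against 7.19% with all arrays.

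The fall of several of these genes was uneven among tumors, as it was for Pik3r1. Rag1 was at 11.5 on tumor 1 and at 7.62 and 7.36 on tumors 2 and 3, against 12.89 to 13.59 on controls. Ccng2, a cyclin of quiescent cells, was at 10.56, 8.05 and 7.69, against 10.71 to 11.02. Bcl2l11, which encodes the death factor Bim, was at 11.91, 9.23 and 9.14, against 10.91 to 11.15, and did not pass (−0.91, adjusted p = 0.357). Between tumors and non-malignant samples Rag2 (−3.05), Bcl6 (−2.56) and Rag1 (−3.71) fell and Sod2 (0.74) rose (adjusted p = 0.00319, 0.00577, 0.0485 and 0.0403). The calls of Rag1 and Sod2 held in 1 of 9 fits with 1 array left out, the one without tumor 1. That fit called 10 of the 18 genes lower in place of 3, while the share of all genes called lower went from 2.7% to 13.8%. The cell surface receptor gene Il7r, a well-known Foxo1 target, differed by 0.81 in non-malignant samples and 0.36 in tumors against controls (adjusted p = 0.179 and 0.378).

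**Figure D5:**
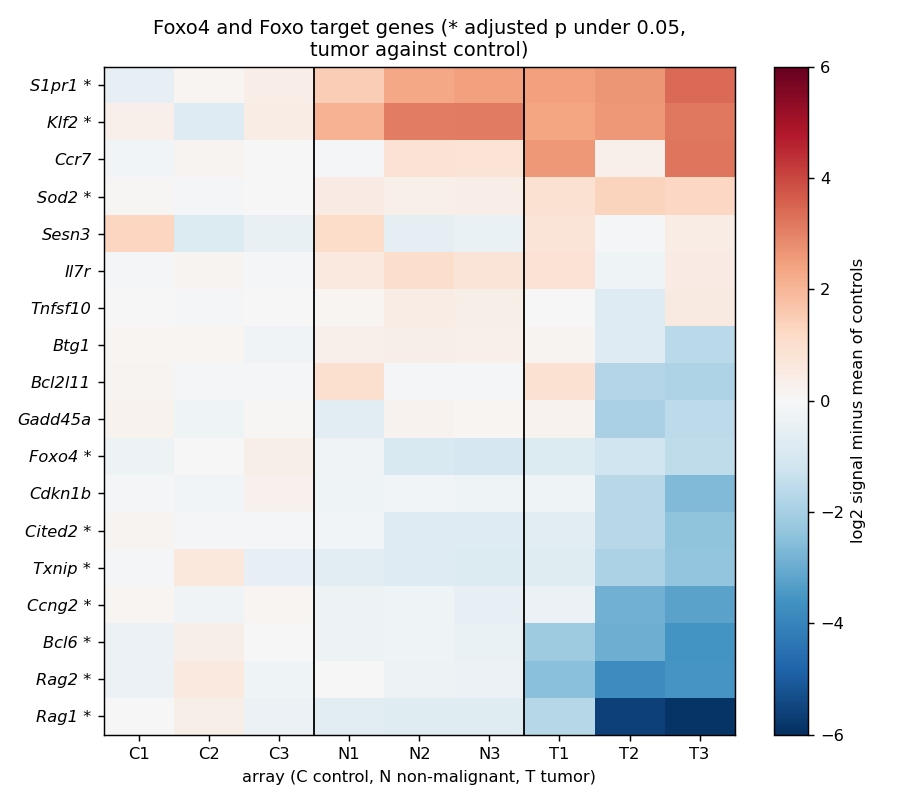
Log2 signal minus the mean of the controls (colour) of Foxo4 and 17 Foxo target genes (vertical axis) on each array (horizontal axis; C control, N non-malignant, T tumor). Genes are sorted by their log2 fold change in tumors against controls, and an asterisk marks an adjusted p under 0.05 there. Klf2 and S1pr1 are red on all non-malignant and tumor arrays, and the blue block at the lower right is deeper on tumors 2 and 3 than on tumor 1.

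Promoter sequence is shown for both members that were called in non-malignant samples and for Txnip, the called Foxo target whose window holds a Foxo motif. Each is the 250 bases before the annotated start, from RefSeq on build GRCm38.p6, on the plus strand at chr7:67952007-67952256, chr3:52268087-52268336 and chr3:96557707-96557956. All 9 members and 16 of the 20 genes of the Foxo list matched a window. Capitals mark the Foxo motif GTAAACA or its reverse complement TGTTTAC, or the RBPJ motif TGGGAA or its reverse complement TTCCCA, RBPJ being the DNA-binding partner of Notch.
Igf1r: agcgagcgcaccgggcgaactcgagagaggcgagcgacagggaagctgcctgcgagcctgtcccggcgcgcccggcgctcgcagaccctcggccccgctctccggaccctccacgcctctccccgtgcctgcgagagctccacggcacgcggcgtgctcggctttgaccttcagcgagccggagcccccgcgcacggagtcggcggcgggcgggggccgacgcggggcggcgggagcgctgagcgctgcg
Foxo1: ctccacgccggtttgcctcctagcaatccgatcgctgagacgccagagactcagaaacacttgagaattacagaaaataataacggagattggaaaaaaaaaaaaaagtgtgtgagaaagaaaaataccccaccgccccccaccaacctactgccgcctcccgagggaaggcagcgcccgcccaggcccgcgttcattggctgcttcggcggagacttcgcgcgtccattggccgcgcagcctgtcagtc
Txnip: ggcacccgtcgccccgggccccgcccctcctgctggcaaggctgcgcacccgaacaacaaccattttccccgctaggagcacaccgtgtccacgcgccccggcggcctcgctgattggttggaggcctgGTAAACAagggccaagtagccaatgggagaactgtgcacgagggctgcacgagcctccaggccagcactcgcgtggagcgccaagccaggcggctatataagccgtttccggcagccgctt
The windows of Igf1r and Foxo1 hold neither motif, and that of Txnip holds the Foxo motif beginning 121 bases before the start. Over 32851 windows of this length the Foxo motif is in 3.17% and the RBPJ motif in 21.6%. Of the 18 windows of the Foxo list, 3 hold the Foxo motif, those of Txnip, Btg1 and Bcl2l11. Of the 16 windows of the 9 members, 1 holds the Foxo motif (Akt1) and 5 hold the RBPJ motif. A match describes the letters and does not show binding. Txnip, a brake on glucose uptake, fell by 1.67 in tumors against controls (adjusted p = 0.0232), and its call ended without control 1, control 2, tumor 2 or tumor 3. Btg1 differed by −0.75 there (adjusted p = 0.172).

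Genes whose 9 values ran most like those of a member were ranked by Pearson correlation across the 9 arrays, which share the group differences. For Igf1r these were Ankrd63 (r = 0.961), Ccnl1 (r = 0.959), Aldh7a1 (r = 0.943), Cd96 (r = 0.929) and Abca1 (r = 0.923). All 5 were higher on each control than on any other array. For Foxo1 they were Prr29 (r = 0.972), Edaradd (r = 0.964) and Grin2c (r = 0.963), each highest on the 3 non-malignant arrays. Prr29 was at 8.33 on tumor 1 and at 6.29 and 6.23 on the others, a spread like that of Foxo1. For Pik3r1 they were Mxd1 and B3gnt5 (r = 0.987 each) and Atg3 (r = 0.985). For Inpp5d they were Wdfy2 (r = 0.987), Zfp58 (r = 0.985) and Klc1 (r = 0.983), and for Foxo3 Ttll12 (r = 0.978), Dda1 (r = 0.973) and Ing1 (r = 0.969). Those of Pik3r1 and Inpp5d were lower on tumors 2 and 3 than on any other array. For the 4 members without a call or a separated group the leading genes were Syn2, Depp1 and Ppp3r1 (Pik3cd, r = 0.943 to 0.962), Vps51, Csnk1g2 and Surf6 (Akt1, r = 0.946 to 0.983), Cks2, Tlnrd1 and Nphp4 (Akt2, r = 0.92 to 0.932) and Cfap36, Cwc27 and Anapc1 (Ddit4, r = 0.925 to 0.933).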

How the data were processed

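The 9 genes and the pathway lists were chosen with earlier results of these data known. Per the labels, RNA was isolated with TRIZOL and RNeasy columns, amplified to biotin-labelled cRNA and run on 1 array per sample. The authors deposited 1 log2 value per array for each of 45101 probe sets. The methods of background correction, normalization and summarization are not given in the sources used here, and base 2 was inferred from the range of 2.68 to 14.57. Array medians ran from 5.67 to 5.77. The SD over probe sets was 1.97 on tumor 3 and 2.12 to 2.19 on the other arrays. No further scaling was applied. The number of arrays limits the precision.

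Of the probe sets, 34945 carry 1 gene symbol in the platform annotation, 932 several and 9160 none, and 64 are controls. Names were updated through Entrez ID for 34741. Some listed genes had no probe set of their own and were not analysed here. A gene was tested if its probe set lay above the 40th percentile on 3 or more arrays. All 9 arrays entered 1 limma 3.58.1 fit in R 4.3.3 with the group as the factor (variance trend on the mean, 6 residual and 3.6 prior degrees of freedom). Tables were made in Python 3.11.15 with pandas 2.3.3 and figures with matplotlib 3.10.9. The fit was also run on simulated data with independent spread on each array. Such data hold no differences of whole arrays, so that run does not bear on calls that depend on single arrays.  Named are the 9 members, the called genes of each list (at most 4 per direction in full, the rest by name) and the genes of highest correlation, without clone and predicted names. Insr, Pik3r5, Bcl2l11, Btg1 and Il7r, and the values of Txnip and Ccng2, were added after their values were seen. Alternatives covered the scaling, filter, probe set choice, variance model, array weights, replicate number, threshold, the averaging of non-malignant arrays 2 and 3 and the leaving out of each array, with each gene kept on the same probe set. Their use on the pathway lists was added after seeing the data.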

Additional observations from a re-analysis of the deposited data

How the results depend on the processing

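The 9 genes gave 27 log2 fold changes, each recomputed under 14 alternatives and with each of the 9 arrays left out. The direction changed in 21 of these values, none of them of a called difference, while 46 lost and 13 gained the call. The number of all genes called (469 for non-malignant samples and 2084 for tumors, both against controls, and 562 for tumors against non-malignant samples) was 1286, 1341 and 283 with 1 variance factor per group. It was 2420, 4884 and 5698 with 1 weight per array, 1121, 842 and 110 with only the 2 groups compared, and 233, 584 and 83 at an adjusted p under 0.01. With non-malignant arrays 2 and 3 averaged, 218 were called in the first comparison and 73 in the last, and with each probe set tested on its own 3278 in the second. With 1 array left out the counts ran from 205 (non-malignant 2) to 708 (tumor 1), from 926 (control 2) to 4119 (tumor 1) and from 53 (non-malignant 3) to 3399 (tumor 1).

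Of the 9 genes, 2, 3 and 0 were called in the 3 comparisons. In non-malignant samples the 2 became 1 with median scaling, without a filter or with all probe sets tested, Foxo1 being lost, and 0 at an adjusted p under 0.01 or with non-malignant arrays 2 and 3 averaged. In tumors against controls the 3 became 1 with 1 variance factor per group (Pik3r1) or with those arrays averaged (Igf1r), and 0 at an adjusted p under 0.01 or with only the 2 groups compared. In tumors against non-malignant samples 5 were called with 1 weight per array and 1 with the filter at the 60th percentile. With 1 array left out the counts ran from 0 to 2, from 1 to 4 and from 0 to 4. The labels do not pair the samples by number. Of 9 same-numbered pairs, 3 correlated above 0.1 in their deviations from the group means (r from −0.05 to 0.22). Of 18 differently numbered pairs, 2 did (r from −0.26 to 0.21), and 4 of 9 arrays correlated best with their own number. With the replicate block, 287 genes were called in tumors against non-malignant samples, and the members called became 1 in non-malignant samples (Igf1r) and 2 in tumors against controls (Igf1r and Inpp5d). Signs that turned belong to differences that did not pass. In non-malignant samples Pik3r1 was 0.09 with 1 weight per array, 0.03 with median scaling and −0.09 to 0.07 with 1 array left out, and Pik3cd 0.12 with 1 weight per array, 0.06 as the mean of its probe sets and −0.45 to 0.11. In tumors against controls Akt1 ran from −0.02 to 0.22 and Akt2 from −0.18 to 0.04, with Akt2 at 0.01 under quantile normalization and 0.07 as the mean of its probe sets. Foxo1 there was −0.05 with 1 weight per array and −0.27 to 0.43. Ddit4 in tumors against non-malignant samples was 0.09 under quantile normalization and −0.47 to 0.39. The causes were not tested.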
